A study of Rattus norvegicus with 12 samples.

Results

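Glycolysis splits glucose into pyruvate in the cytosol, and T cells are known to raise it when they are activated by antigen. The 6 genes of glucose uptake and glycolysis described here were measured in β-synuclein-reactive CD4+ T cells of LEW/Crl rats. They are Slc2a1, Hk2, Gapdh, Eno1, Pkm and Ldha, chosen by their Ensembl identifiers as 6 of the 32754 gene rows in every file, and all 6 passed the filter on low counts in each comparison. Slc2a1 (ENSRNOG00000007284) encodes the glucose transporter GLUT1, and Hk2 (ENSRNOG00000006116) encodes hexokinase 2, which phosphorylates glucose at the first step. Gapdh (ENSRNOG00000018630), Eno1 (ENSRNOG00000017895) and Pkm (ENSRNOG00000011329) encode enzymes of the later, energy-yielding steps. Ldha (ENSRNOG00000013009) encodes a subunit of lactate dehydrogenase, which converts pyruvate to lactate and regenerates NAD+.

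β-Synuclein is made by neurons, and T cells against it are known to invade the brain. All cells were sorted after intravenous transfer, on day 3 by the series' design text. The groups were wild-type cells from blood (genotype wt), and cells with the genotype b-syn TCR Tg, whose T cell receptor for β-synuclein is a transgene, from blood, from the brain meninges and from the brain parenchyma, with 3 libraries in each of the 4 groups. The title codes end in 4 for the parenchyma samples and in 3 for the other 9, so if that digit marks a day, tissue and day cannot be told apart in the parenchyma comparisons. Neither the age of the rats nor the promoter of the transgene nor the recipients' details are stated in the labels. The labels do not tie replicates to separate animals, and p-values then cover the spread between samples alone, which may be technical.

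Library totals ran from 16643832 to 38601400 counts. TruSeq and NEBNext low-input kits are both named without an assignment to libraries, so a kit that differed between groups cannot be told apart from tissue or genotype in any of the 4 comparisons. A marker check of the sorted cells was not made, because the files pair no gene names with their identifiers. Levels are given as CPM, counts per 1000000 counts of the file. Since gene lengths were not used, differences in CPM between genes do not rank their transcripts, and levels are compared between libraries. Sums, ratios and low values across genes below refer to counts alone. In bulk libraries, a change in the share of cells that express a gene and a change in the RNA per cell cannot be told apart. The parenchyma libraries differed in the share of counts taken by 77 genes that had no more than 3 counts in any transgenic blood library but averaged 5 CPM or more over the parenchyma. That share was 0.0581%, 0.0181% and 0.317% in parenchyma replicates 1, 2 and 3, and between 0.00469% and 0.0111% in the meninges. The limit on the parenchymal mean by itself favours a higher share there than in the meninges, and replicate 3 alone can carry a gene past it.

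The stretches just before the transcription start are shown for Slc2a1 and Hk2, which had the largest rises of the 6 genes in the meninges, and for Ldha, which had the smallest rise of the 5 genes called in the parenchyma. They are the 250 bases before the start, 5′ to 3′ on the gene's strand, from the RefSeq promoter table (build GRCr8, not the build of the counts). Capitals mark ACGTG and GCGTG, searched on both strands so that CACGT and CACGC also count. Such letters form the core of sites known to bind hypoxia-inducible factors, and CACGTG, which holds ACGTG on both strands, is the E-box known to bind Myc.
Slc2a1, chr5:138002272-138002521, plus strand: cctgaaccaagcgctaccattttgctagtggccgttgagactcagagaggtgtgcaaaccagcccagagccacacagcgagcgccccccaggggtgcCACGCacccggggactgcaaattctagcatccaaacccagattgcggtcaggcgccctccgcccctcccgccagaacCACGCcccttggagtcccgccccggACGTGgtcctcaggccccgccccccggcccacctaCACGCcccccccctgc
Hk2, chr4:116841276-116841525, minus strand: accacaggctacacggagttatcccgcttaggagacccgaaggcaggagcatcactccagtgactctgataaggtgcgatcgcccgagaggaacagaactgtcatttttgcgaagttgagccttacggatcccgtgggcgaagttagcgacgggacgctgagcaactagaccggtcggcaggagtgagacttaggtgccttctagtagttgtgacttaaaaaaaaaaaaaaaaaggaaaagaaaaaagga
Ldha, chr1:106507842-106508091, plus strand: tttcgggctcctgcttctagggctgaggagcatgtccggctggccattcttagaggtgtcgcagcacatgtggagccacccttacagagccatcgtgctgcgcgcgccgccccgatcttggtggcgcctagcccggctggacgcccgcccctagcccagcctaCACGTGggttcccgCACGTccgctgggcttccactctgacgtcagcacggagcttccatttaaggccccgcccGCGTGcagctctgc
Slc2a1 had 1 match to ACGTG and 3 to GCGTG. Ldha had 3 matches to ACGTG, of which CACGTG accounts for the pair on its opposite strands, and 1 match to GCGTG. Hk2 had 0 matches in this window, as did Pkm. Gapdh had 1 match to ACGTG and 2 to GCGTG, and each of the 2 start regions listed for Eno1 had 1 match to GCGTG and 0 to ACGTG. Among all 33469 promoter stretches of this length, 16.6% held ACGTG, 25.9% GCGTG, 36.7% at least one of these and 5.59% CACGTG. Slc2a1 and Hk2 thus differed in these letters, and whether the letters bear on the levels of either gene was not tested. A match is a description of the letters and not a binding site.

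Levels of Slc2a1 were lowest in wild-type blood, higher in transgenic blood and highest in the brain compartments. The CPM of replicates 1, 2 and 3 was 25.9, 29.9 and 29.6 in wild-type blood and 53.5, 47.0 and 37.7 in transgenic blood. In the meninges the 3 libraries held 137, 206 and 193 CPM, and in the parenchyma 164, 92.9 and 209.6 CPM. Every library from the brain compartments lay above every blood library, while meninges and parenchyma overlapped. The share of all genes with this separation from both blood groups was not computed. Against transgenic blood alone, 13.5% of tested genes were higher without overlap in the meninges and 24.2% in the parenchyma. Group means were 28.5 ± 2.22 CPM in wild-type blood, 46.1 ± 7.95 CPM in transgenic blood, 179 ± 36.7 CPM in the meninges and 156 ± 58.8 CPM in the parenchyma (SD, n = 3). The parenchyma had the widest spread for this gene, with a coefficient of variation of 37.8%.

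Hk2 followed the same order of groups. Its CPM was 35.3, 30.7 and 42.6 in the replicates of wild-type blood and 69.9, 52.4 and 43.9 in those of transgenic blood. It was 130, 194 and 194 CPM in the meninges and 159, 102 and 167 CPM in the parenchyma. As for Slc2a1, the brain compartments did not overlap with blood and overlapped with each other. The share of all genes for which this held was not computed. Means were 36.2 ± 5.99, 55.4 ± 13.3, 173 ± 37.2 and 143 ± 35.8 CPM in wild-type blood, transgenic blood, meninges and parenchyma (SD, n = 3). Slc2a1 and Hk2 also shared their highest and lowest library within each transgenic group: replicates 1 and 3 in blood, 2 and 1 in the meninges, and 3 and 2 in the parenchyma. This was not so in wild-type blood, where Slc2a1 was highest in replicate 2 and Hk2 in replicate 3. In the meninges, Hk2 was nearly level in replicates 2 and 3 (194.3 and 193.7 CPM). Pkm and Gapdh had the same highest and lowest library as this pair in transgenic blood, and Eno1 had the same ones in the parenchyma. How often other pairs of genes share their highest and lowest libraries was not computed, so the match is given as a description.

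Eno1, the enolase of most tissues, had a separate range of values in each group, and the share of all genes with such ranges was not computed. Its CPM was 109, 85.0 and 95.8 in wild-type blood, 129, 116 and 128 in transgenic blood, 189, 190.3 and 178 in the meninges, and 316, 288 and 338 in the parenchyma, in replicates 1, 2 and 3. The parenchyma was highest, followed by the meninges, transgenic blood and wild-type blood. The means were 96.5 ± 11.8, 124 ± 7.59, 186 ± 7.07 and 314 ± 25.2 CPM in wild-type blood, transgenic blood, meninges and parenchyma (SD, n = 3).

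Pkm encodes pyruvate kinase of muscle and most other tissues, which yields pyruvate at the last step. Its libraries held 53.5, 51.6 and 53.9 CPM in wild-type blood, 70.7, 63.5 and 60.4 CPM in transgenic blood, 79.4, 76.8 and 82.1 CPM in the meninges, and 112, 128 and 153 CPM in the parenchyma. The 4 groups were again separate, with the widest gap between meninges and parenchyma. As for Eno1, how many other genes had 4 separate groups was not computed. Means were 53.0 ± 1.21, 64.8 ± 5.28, 79.4 ± 2.65 and 131 ± 20.4 CPM (SD, n = 3). In the parenchyma, Slc2a1, Hk2, Eno1 and Pkm were all highest in replicate 3, the library with the largest share of counts from genes nearly absent from blood, and the part of that share in these levels was not tested.

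Ldha likewise kept the 4 groups apart. It was at 179.6, 140.4 and 154 CPM in wild-type blood and at 251, 209 and 249 CPM in transgenic blood. The meningeal libraries held 319.7, 322 and 287 CPM and the parenchymal libraries 354, 396 and 396 CPM. Means were 158 ± 19.9, 236 ± 23.2, 309.6 ± 19.4 and 382 ± 24.4 CPM in wild-type blood, transgenic blood, meninges and parenchyma (SD, n = 3). The share of all genes that kept the 4 groups apart, as Eno1, Pkm and Ldha did, was not computed. In each of the 4 comparisons below, between 13.5% and 24.2% of tested genes were higher without overlap of libraries.

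Gapdh, which encodes glyceraldehyde-3-phosphate dehydrogenase and often serves as a reference gene, was counted at low values with groups that all overlapped. It held 8.63, 10.5 and 6.84 CPM in wild-type blood, 12.1, 8.17 and 3.8 in transgenic blood, 6.47, 10.4 and 12.5 in the meninges, and 12.6, 6.68 and 7.20 in the parenchyma. These values rest on 64 to 410 counts per library. Transgenic blood replicate 3 was lowest of the 12 libraries, and the coefficient of variation in that group was 51.8%. For the other members it ran from 6.10% (Eno1) to 24.0% (Hk2) in that group. Rodent genomes carry many near-identical processed copies of Gapdh, and the treatment of reads that map to several places is not stated in the labels. The Gapdh values are therefore uncertain, and whether such reads were lost was not tested, for Gapdh or for the other members.

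**Figure D1:**
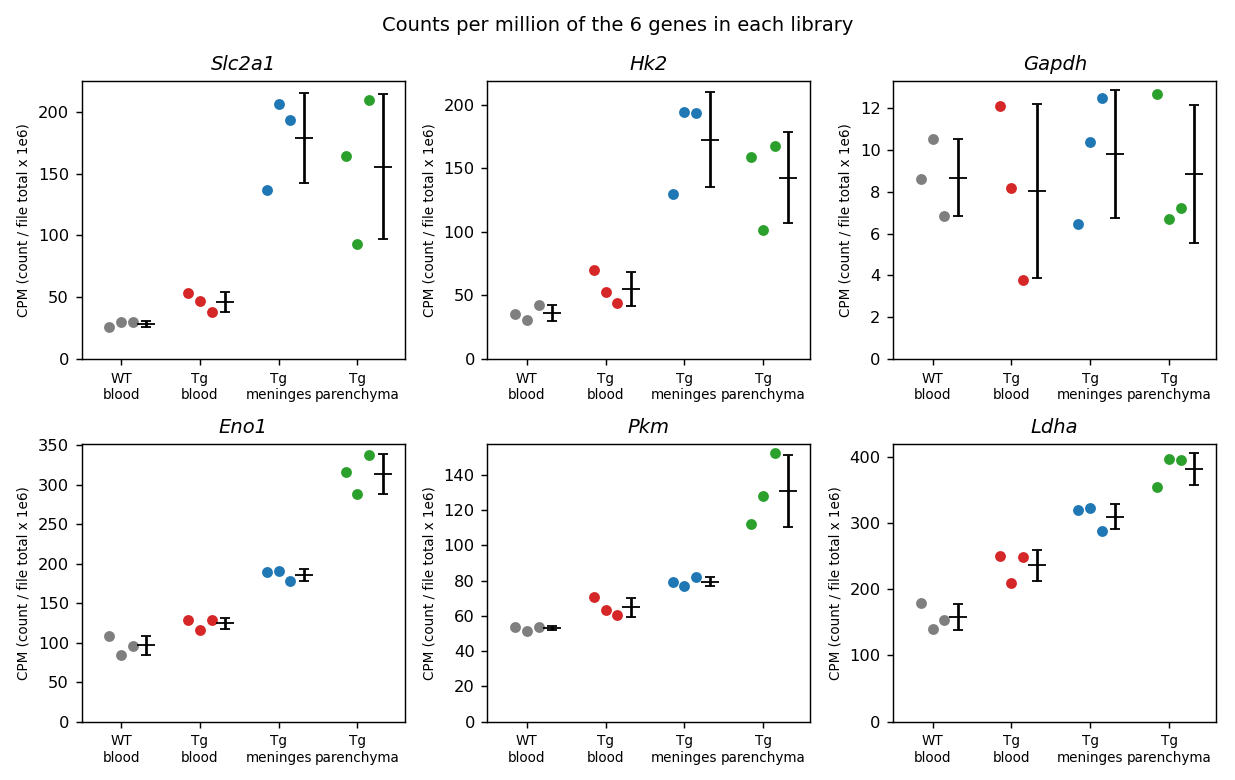
CPM (counts per 1000000 counts of the file) of each gene in every library, with replicates 1 to 3 from left to right as points and the group mean ± SD (n = 3) as a bar; each panel has its own axis from 0. Slc2a1 and Hk2 are at means of 179 and 173 CPM in the meninges and overlap there with the parenchyma. Eno1, Pkm and Ldha are separate in all 4 groups, and Gapdh lies between 3.8 and 12.6 CPM without separation. The share of all genes with 4 separate groups was not computed.

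Added over the 6 genes, the sum was 381 ± 31.7 CPM in wild-type blood, 535 ± 46.2 in transgenic blood, 936 ± 69.8 in the meninges and 1134 ± 129 in the parenchyma (SD, n = 3). Its lowest and highest values were 348 and 411 in wild-type blood, 496 and 586 in transgenic blood, 861 and 999.8 in the meninges, and 1013 and 1270.4 in the parenchyma. The sum is weighted towards Ldha and Eno1, which hold most of the counts, and is given as a description.

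Transgenic cells from the meninges were compared with those from blood to see which members differed at the border of the brain. Slc2a1, Hk2 and Eno1 were higher in the meninges, and Ldha, Pkm and Gapdh did not pass the test. In this comparison 4.76% of the 11809 tested genes were called higher, against 3 of the 6 members, and 1.75% were called lower, against 0 members. Slc2a1 rose 4.01-fold (log2 fold change 2.00, SE 0.29, adjusted p = 0.00319 in edgeR's quasi-likelihood test with Benjamini-Hochberg adjustment over all tested genes, as for the adjusted p-values below unless another tool is named). Its log2 fold change was above that of 97.6% of tested genes. Hk2 rose 3.21-fold (log2 fold change 1.68, SE 0.25, edgeR adjusted p = 0.00375), above 96.9% of tested genes. For Eno1 the rise was 1.55-fold (log2 fold change 0.63, SE 0.11, edgeR adjusted p = 0.0102), above 90.1% of tested genes. Eno1 missed the threshold without meninges replicate 2 (log2 fold change 0.61, edgeR adjusted p = 0.0538).

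The other enzymes had smaller values in this comparison. Ldha had a log2 fold change of 0.44 (SE 0.12, edgeR adjusted p = 0.0679), Pkm one of 0.34 (SE 0.13, edgeR adjusted p = 0.165) and Gapdh one of 0.33 (SE 0.42, edgeR adjusted p = 0.704). DESeq2 called Ldha (log2 fold change 0.43, adjusted p = 0.015). The meningeal libraries of 5 members lay above all transgenic blood libraries, Ldha and Pkm included, as did those of 13.5% of tested genes. The median log2 fold change was 0.53 over the 6 members and 0.00 over all tested genes. The count over all tested genes, 769 in the comparison as fitted, was 359 and 411 without transgenic blood replicates 2 and 3, and 346 and 400 without meninges replicates 2 and 3.

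Parenchyma and blood were compared in the same way for cells inside the brain tissue. Here 5 members rose, and Gapdh did not pass the test. Among all 11809 tested genes 18.7% were called higher and 16.4% lower, so that calls were common in this contrast. Slc2a1 was 3.36-fold higher (log2 fold change 1.75, SE 0.29, edgeR adjusted p = 0.00156) and Hk2 2.55-fold higher (log2 fold change 1.35, SE 0.25, edgeR adjusted p = 0.00285). Eno1 rose 2.5-fold, with the lowest adjusted p of the 6 genes (log2 fold change 1.32, SE 0.11, edgeR adjusted p = 4.82e-05). Pkm rose 2.00-fold (log2 fold change 1.00, SE 0.13, edgeR adjusted p = 0.000465) and Ldha 1.60-fold (log2 fold change 0.68, SE 0.12, edgeR adjusted p = 0.00278). The log2 fold changes of Slc2a1, Hk2, Eno1, Pkm and Ldha lay above those of 93.1%, 91.4%, 91.2%, 88.2% and 82.8% of tested genes.

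Gapdh had a log2 fold change of 0.12 against blood (SE 0.42, edgeR adjusted p = 0.845). Its sign was not fixed: it was -0.23 without transgenic blood replicate 3 and -0.22 without parenchyma replicate 1. The parenchymal libraries of the 5 members that rose lay above all transgenic blood libraries, as did those of 24.2% of tested genes. The median log2 fold change was 1.16 over the 6 members and 0.02 over all tested genes. Without parenchyma replicate 3, in which genes nearly absent from blood took the largest share of counts, the log2 fold change was 1.46 for Slc2a1 (edgeR adjusted p = 0.00235), 1.21 for Hk2 (0.0066), 1.25 for Eno1 (0.000109), 0.86 for Pkm (0.00091) and 0.64 for Ldha (0.00839). The 5 calls thus stood without that library. Replicates 1 and 2 also held counts of such genes (0.0581% and 0.0181%), so the part of that share in the rises was not tested. Hk2 and Eno1 had no fixed order in this comparison: Hk2 was the lower of the pair without that library, without parenchyma replicate 1 (1.27 and 1.32) and without transgenic blood replicate 3 (1.20 and 1.34).

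Comparing parenchyma with meninges asked whether the brain compartments differed from each other. Eno1 and Pkm, both enzymes of the last steps before pyruvate, were higher in the parenchyma. Eno1 was 1.62-fold higher in the parenchyma than in the meninges (log2 fold change 0.69, SE 0.11, edgeR adjusted p = 0.00462) and Pkm 1.58-fold higher (log2 fold change 0.66, SE 0.13, edgeR adjusted p = 0.0114). Against these 2 of 6 members, 8.0% of the 11809 tested genes were called higher, and against 0 members 7.48% were called lower. Pkm missed the threshold without meninges replicate 2 (log2 fold change 0.62, edgeR adjusted p = 0.0579), which left 1 member called.

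Ldha had a log2 fold change of 0.24 between these compartments (SE 0.12, edgeR adjusted p = 0.227). Slc2a1 had one of -0.26 (SE 0.28, edgeR adjusted p = 0.577), which was 0.00 without parenchyma replicate 2. Hk2 stood at -0.33 (SE 0.24, edgeR adjusted p = 0.397) and Gapdh at -0.21 (SE 0.42, edgeR adjusted p = 0.776). A missed threshold does not show that levels were equal. The parenchymal libraries of Eno1, Pkm and Ldha lay above all meningeal libraries, as did those of 21.1% of tested genes. The median log2 fold change was 0.01 over the 6 members and 0.02 over all tested genes. Values of both signs occurred among the members, and none of the negative ones passed the test. Calls over all genes split into 945 higher and 883 lower, and into 1159 and 702 when libraries were scaled by their totals alone, under which the same number of members, 2, was called. The 1828 calls became 1103, 730 and 809 without meninges replicates 1, 2 and 3.

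**Figure D2:**
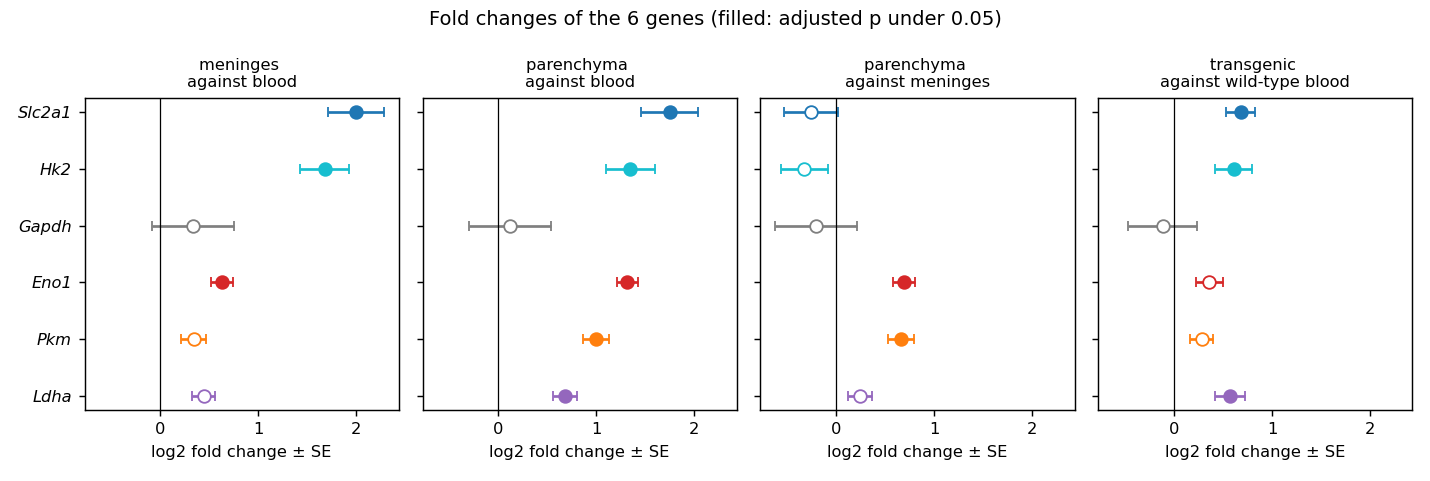
Log2 fold change ± SE of each gene in the 4 comparisons, from edgeR, with filled points for an adjusted p under 0.05. Slc2a1 and Hk2 have the largest values of the 6 genes between meninges and blood, Hk2 (1.35) and Eno1 (1.32) lie within their SEs of each other between parenchyma and blood, and Eno1 and Pkm are the filled points between parenchyma and meninges.

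The place of the meninges between blood and parenchyma varied among the members. Both comparisons use the same transgenic blood libraries. On the log2 scale the meningeal difference from blood, as a share of the parenchymal one, was 0.34 for Pkm, 0.477 for Eno1 and 0.647 for Ldha. It was 1.14 for Slc2a1 and 1.24 for Hk2, whose meningeal means lay above the parenchymal ones by less than the spread between replicates. For Gapdh, with no call in either comparison, the share has no use.

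Ratios of counts within a library do not depend on the scaling of libraries. The log2 ratio of Hk2 to Eno1 counts was -0.88, -1.14 and -1.55 in replicates 1, 2 and 3 of transgenic blood, -0.55, 0.03 and 0.13 in the meninges, and -0.99, -1.50 and -1.01 in the parenchyma. The meninges lay above both other tissues without overlap, and blood and parenchyma overlapped. For Slc2a1 to Eno1 the ratio was -1.27, -1.30 and -1.77 in transgenic blood, -0.47, 0.11 and 0.12 in the meninges, and -0.94, -1.63 and -0.69 in the parenchyma. Here too the meninges stood clear of the other groups. The separation from the parenchyma depended on the gene in the denominator. With Pkm it held, at 0.71 to 1.34 in the meninges against -0.33 to 0.51 in the parenchyma for Hk2, and at 0.79 to 1.42 against -0.46 to 0.55 for Slc2a1. With Ldha it did not, at -1.30 to -0.57 against -1.96 to -1.15 for Hk2 and -1.22 to -0.57 against -2.09 to -0.92 for Slc2a1. In wild-type blood the ratio to Eno1 lay between -1.62 and -1.17 for Hk2 and between -2.07 and -1.51 for Slc2a1. With 3 libraries against 3, an exact permutation test cannot give a two-sided p under 0.1, so these ratios are given as a description.

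**Figure D3:**
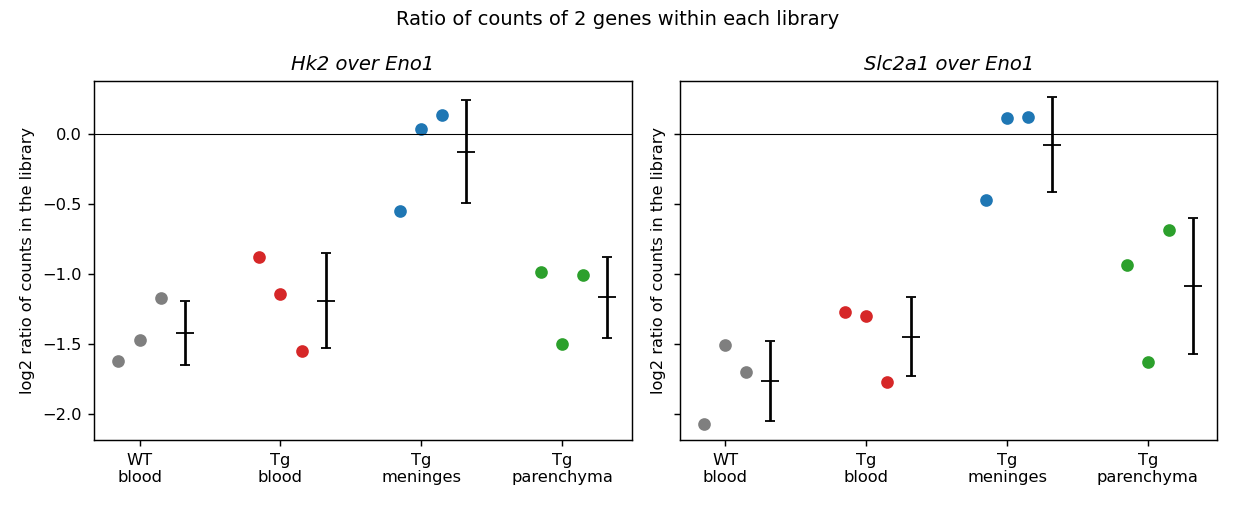
Log2 ratio of Hk2 to Eno1 counts and of Slc2a1 to Eno1 counts in each library (points, replicates 1 to 3 from left to right), with the group mean ± SD (n = 3). The meningeal libraries lie between -0.55 and 0.13, above all others in both panels.

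The log2 ratio of Eno1 to Ldha counts was -0.16, -0.46 and -0.23 in the parenchyma, above the range of -0.76 to -0.69 in the meninges, -0.96 to -0.86 in transgenic blood and -0.73 to -0.68 in wild-type blood. The ratio of Slc2a1 to Hk2 counts ran from 0.765 to 0.896 in transgenic blood, from 0.997 to 1.06 in the meninges and from 0.914 to 1.25 in the parenchyma. The parenchyma thus overlapped with the meninges and with wild-type blood, where the ratio ran from 0.694 to 0.972.

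Blood was the tissue in which genotypes could be compared. Slc2a1, Hk2 and Ldha were higher in transgenic than in wild-type cells, and Eno1, Pkm and Gapdh did not pass the test. Of the 11618 genes tested here, 13.1% were called higher and 12.8% lower, against 3 and 0 of the 6 members. The log2 fold changes of Slc2a1, Hk2 and Ldha lay above those of 89.6%, 87.8% and 86.7% of tested genes. Slc2a1 was 1.61-fold higher (log2 fold change 0.68, SE 0.15, edgeR adjusted p = 0.0102) and was called whichever single library was left out. Hk2 was 1.52-fold higher (log2 fold change 0.61, SE 0.19, edgeR adjusted p = 0.0396). It missed the threshold without wild-type replicate 1 (log2 fold change 0.60, edgeR adjusted p = 0.0712) or 2 (0.51 and 0.122) or transgenic replicate 1 (0.39 and 0.154). Ldha was 1.49-fold higher (log2 fold change 0.57, SE 0.15, edgeR adjusted p = 0.0191). It missed the threshold without wild-type replicate 2 (log2 fold change 0.50, edgeR adjusted p = 0.0656) or 3 (0.52 and 0.0738). The same held without transgenic replicate 1 (0.52 and 0.0781) or 3 (0.52 and 0.0565).

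Eno1 had a log2 fold change of 0.36 between genotypes (SE 0.14, edgeR adjusted p = 0.082), which passed without wild-type replicate 1 (0.46, adjusted p = 0.0445). Pkm stood at 0.28 (SE 0.12, edgeR adjusted p = 0.113) and Gapdh at -0.12 (SE 0.35, edgeR adjusted p = 0.823). The transgenic libraries of all members but Gapdh lay above all wild-type libraries, as did those of 23.6% of tested genes. The median log2 fold change was 0.46 over the 6 members and -0.01 over all tested genes. Only 1 member was called without wild-type replicate 2 or without transgenic replicate 1. The 3002 calls over all genes then fell as well, to 2078 and 1789. Wild-type libraries were the deeper ones, with at least 29959282 counts against at most 21229957 in transgenic blood.

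**Figure D4:**
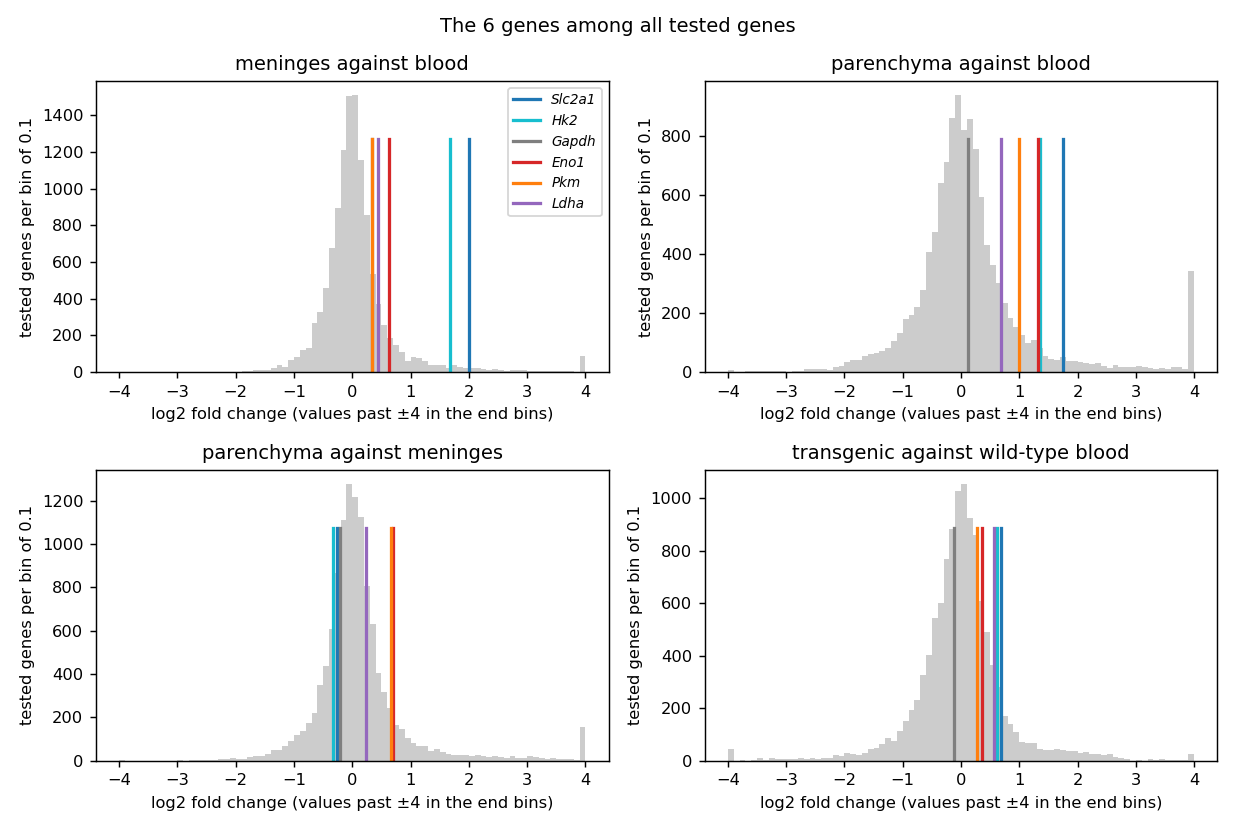
Histograms of the log2 fold change of all tested genes in bins of 0.1, one panel for each comparison, with the 6 genes as coloured lines; values beyond 4 in size are counted in the end bins. Slc2a1 and Hk2 lie above 97.6% and 96.9% of genes between meninges and blood, and the lines fall on both sides of 0 between parenchyma and meninges.

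Among 6892 other genes of at least 20 CPM on average, the pattern most like that of a member was sought by Pearson's r of log2(CPM + 1) over the 12 libraries. The libraries share group and tissue, so r mostly reflects the 4 group means and is given as a description. For Eno1 it was highest for ENSRNOG00000021021 (r = 0.987), which averaged 39.3, 59.5, 94.0 and 173 CPM in wild-type blood, transgenic blood, meninges and parenchyma. For Slc2a1 it was ENSRNOG00000005731 (r = 0.979), with means of 29.3, 36.4, 122 and 128 CPM in the same order. The best value for Gapdh was 0.824, the lowest of the 6 members, and those for Ldha, Pkm and Hk2 lay between 0.976 and 0.979.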

How the data were processed

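The deposited values are whole-number counts per Ensembl gene, 1 file per library, and hold no row without a gene. STAR 2.5 and featureCounts 1.5.0-p1 are among the tools listed in the submitters' processing notes, together with build rn6. How they were set, including the strand, the annotation and the treatment of reads that map to several places, was not given in the sources used here.

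Genes were kept by edgeR 4.0.16's filterByExpr (minimum count 10), TMM-scaled (trimmed mean of M-values) and tested two-sided by the quasi-likelihood test in R 4.3.3. The tissue contrasts were fitted on the 9 transgenic libraries and the genotype contrast on the 6 blood libraries, with a Benjamini-Hochberg threshold of 0.05 over all tested genes. The SE of a log2 fold change was taken as its size over the root of the F statistic. The procedure was also run on counts drawn from a model fitted to these libraries. Such a run cannot show how the test does where the libraries depart from that model. Within each group, replicate libraries differed by more than sampling noise (chi-square per degree of freedom of at least 14.8).

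Alternatives were DESeq2 1.42.0, its size factors in edgeR, library totals without TMM, no filter on low counts, a fit of only the groups compared, a replicate block, and leaving out each library.

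The members and lists were chosen with earlier results of these data known. Members carry the names given with their identifiers. All 6 were named throughout, with 2 identifiers of most similar pattern (mean of at least 20 CPM). The other pathway genes and the cell type markers listed were not analysed here, since no table at hand pairs these Ensembl identifiers with symbols. The members' names were matched by symbol to the RefSeq promoter table, in which all 6 were found.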

Additional observations from a re-analysis of the deposited data

How the results depend on the processing

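Every alternative kept the count of members called within 1.5 times, except where a library was left out. Leaving out 1 library at a time gave 2 to 3 members called for meninges against blood, 5 in each case for parenchyma against blood, 1 to 2 for parenchyma against meninges and 1 to 3 between genotypes in blood. The counts over all genes were then 346 to 606, 3298 to 4416, 730 to 2159 and 1789 to 2906, in the same order. Without the filter on low counts they were 762, 4264, 1945 and 3487. For meninges against blood, where edgeR called 769 genes, DESeq2 called 1318 and a fit of only the groups compared called 1255; the cause was not tested.

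The sign changed only for values that missed the threshold. For Gapdh the log2 fold change was -0.01 for meninges against blood and -0.23 for parenchyma against blood without transgenic blood replicate 3, and -0.22 for the latter without parenchyma replicate 1. Between genotypes it was 0.05 without wild-type replicate 2 and 0.20 without transgenic replicate 3. For Slc2a1 between parenchyma and meninges it was 0.00 without parenchyma replicate 2. Over the libraries left out, these values ran from -0.01 to 0.79, from -0.23 to 0.57 and from -0.57 to 0.20 for Gapdh in the 3 contrasts, and from -0.55 to 0.00 for Slc2a1.

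The titles give the groups the same replicate numbers, but the labels do not say what a number marks. The deviations of same-numbered libraries from their group means correlated across genes at 0.053 to 0.266 between blood and meninges, where each of the 6 libraries correlated best with its own number. They correlated at -0.139 to 0.020 between blood and parenchyma, -0.312 to 0.024 between meninges and parenchyma and -0.089 to 0.286 between genotypes, where 1, 0 and 2 of 6 libraries did so. Parenchyma replicates 1, 2 and 3 correlated best with meninges replicates 2, 3 and 1 (r = 0.236, 0.364 and 0.371). The numbers were not taken as pairs in any contrast, blood and meninges included. These correlations do not settle whether libraries were paired. With the replicate block, 3, 5, 2 and 3 members and 674, 3671, 1407 and 3126 genes were called in the 4 contrasts, in the order above.

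Gapdh had the fewest counts of the 6 genes, as few as 64 in a library, and the cause of its low values was not tested.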
